A study of Xenopus laevis with 6 samples.

Results

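The ephrin and Eph receptor genes described here were the rows of the read count tables whose name begins as an ephrin-A, ephrin-B, EphA or EphB symbol, and 6 of 45099 gene rows did so. They were the L and S copies of 3 genes: the ligand ephrin-A2 (efna2.L, efna2.S) and the receptors EphA3 (epha3.L, epha3.S) and EphA10 (epha10.L, epha10.S). Xenopus laevis carries many genes in an L and an S copy, named for its subgenomes. All 3 belong to class A, and the other genes of the family were not analysed here. The counts came from single whole embryos at stage 11.5, in gastrulation. Control embryos (n = 3) were uninjected, and dkk embryos (n = 3) were given 100 pg of dkk mRNA, which encodes a secreted Wnt antagonist, by injection into both blastomeres of the 2-cell embryo. A control sibling from the same mating was sequenced for every dkk embryo, which gave 3 sibling pairs from 3 matings. Controls received no injection at all, so the effects of dkk and of being injected cannot be told apart.

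Eph receptors are receptor tyrosine kinases, and their ephrin ligands are held on the surface of neighbouring cells. Class A ephrins are anchored by a lipid and class B ephrins span the membrane, and contact can signal into both cells. In many embryos this signalling keeps cell populations apart, and in the Xenopus gastrula it takes part in the separation of ectoderm from mesoderm. Ephrin-A2 and EphA3 are best known from the mapping of retinal axons onto the tectum of the chick. EphA10 is a family member whose human protein is thought to lack kinase activity.

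Reads in genes numbered 17460820 to 19880568 per embryo, and a count of 0 left room for 3 reads (one-sided 95% upper limit), or 0.136 to 0.175 CPM. CPM is the usual library-scaled read count, not divided by transcript length, so levels of different genes are not compared. Intervals of single counts are two-sided, so that of a count of 0 ends higher, and they cover counting error only. The intervals of ratios between siblings and of copy shares also cover counting error only. In the dkk embryos dkk1.S, which the injected mRNA may feed, stood at 473 to 725 CPM, against 11.9 to 19.9 CPM in controls. The other copy, dkk1.L, went the other way, at 2.17 to 9.07 CPM in the dkk embryos against 13.0 to 17.8 CPM in controls (edgeR, adjusted p = 0.152). The Wnt feedback gene axin2.L stood at 0.816 to 5.52 CPM against 53.2 to 93.8 CPM. All 27 mesoderm marker rows were read in every embryo, and their summed level lay between 2354 and 2842 CPM for controls and between 775 and 1416 CPM for dkk embryos. Organizer markers summed to 1262 to 1426 and 1268 to 2142 CPM, endoderm markers to 1383 to 2329 and 2192 to 2773 CPM, epidermal markers to 3013 to 4596 and 3012 to 7500 CPM, and neural plate markers to 676 to 725 and 419 to 712 CPM, in the same order of groups. By edgeR (adjusted p under 0.05, as met by 0.573% of all genes tested), 11 of 27 mesoderm rows fell, 2 of 17 organizer rows rose, 1 of 14 epidermal rows fell and 1 rose, 1 of 15 neural plate rows fell, and 0 of 15 endoderm rows passed. The part of these shifts in the ephrin and Eph values was not tested.

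No ephrin or Eph receptor row passed the test of dkk against control. The 2 epha3 rows had enough reads to be tested, and the other 4 rows did not pass the filter on low counts. Of the 2, 0 were called by edgeR (quasi-likelihood test, Benjamini-Hochberg adjusted p under 0.05 over 21643 genes), DESeq2 or limma-voom, and 0 had an unadjusted p under 0.05 with any of them. Across all genes tested, 0.573% were called, and 0 of 2 cannot be told from that share. With the filter removed, all 6 rows were tested, 0 were called by edgeR and 1, epha3.L, had an unadjusted p under 0.05 (0.0452; adjusted p = 0.736). Without the filter 0.955% of 35909 rows were called and 6.53% had an unadjusted p under 0.05. In a whole embryo, fewer cells of a type and less RNA per cell cannot be told apart. The authors' deposited table of 97 genes held 0 of the 6 rows. With 45099 gene rows in the counts, 0 of 6 says nothing particular about these rows.

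**Figure D1:**
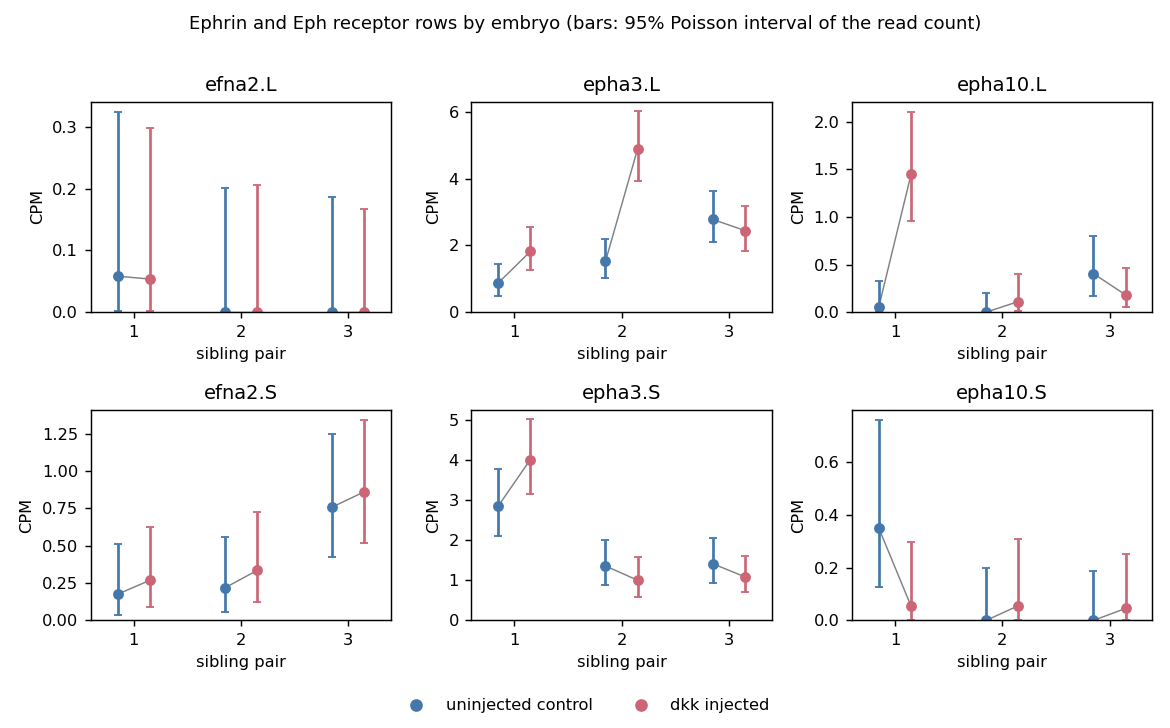
Level of each ephrin and Eph receptor row (CPM, linear axes that differ between panels) in the control and dkk embryo of each sibling pair, with 95% Poisson intervals of the read count. In epha3.L the dkk embryo of pair 2 stands highest at 4.90 CPM, and in epha3.S both embryos of pair 1 stand above the other 4.

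The ligand ephrin-A2 was barely read. The L copy, efna2.L, had 1 read in each embryo of pair 1 and 0 reads in the other 4 embryos, under the limit of 3 reads throughout, so no difference was detectable at this depth. The S copy, efna2.S, was read in every embryo, with 3 and 5 reads in the control and the dkk embryo of pair 1, 4 and 6 in pair 2 and 15 and 19 in pair 3. As CPM, the controls of pairs 1 to 3 stood at 0.175, 0.218 and 0.759 and the dkk embryos at 0.268, 0.334 and 0.861. The dkk embryo stood higher in 3 of 3 pairs, but by less than the counting error in each, and the groups overlapped. The dkk to control ratio was 1.53 in pair 1 (95% interval 0.298 to 9.87), 1.54 in pair 2 (0.364 to 7.40) and 1.14 in pair 3 (0.547 to 2.40). The mean log2 ratio of the pairs was 0.34 ± 0.16 (SD, n = 3, with a prior count of 2). With the filter removed, edgeR gave a log2 fold change of 0.39 ± 0.60 (SE) and an adjusted p of 0.973.

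Both embryos of mating pair 3 stood above the other 4 embryos in efna2.S, whatever their treatment. They had 15 and 19 reads, against 3 to 6 reads in pairs 1 and 2. An F test of the mating pairs in the unfiltered edgeR fit, chosen after these values were seen, gave an adjusted p of 0.116, so the difference between matings did not pass. In that fit 19.4% of rows differed between matings at an adjusted p under 0.05.

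Of the receptors, EphA3 was read in every embryo in both copies. For the L copy, epha3.L, control and dkk embryo had 15 and 34 reads in pair 1 (0.875 and 1.82 CPM), 28 and 88 in pair 2 (1.52 and 4.90 CPM) and 55 and 54 in pair 3 (2.78 and 2.45 CPM). The dkk embryo stood higher in pairs 1 and 2 and lower in pair 3, and the groups overlapped. The ratio was 2.08 in pair 1 (95% interval 1.10 to 4.12) and 3.22 in pair 2 (2.08 to 5.11). Both intervals, which leave out differences between embryos, exclude 1. In pair 3 the ratio was 0.880 (0.593 to 1.31). The mean level was 1.73 ± 0.97 CPM over controls and 3.06 ± 1.63 CPM over dkk embryos (SD, n = 3). The log2 fold change was 0.83 ± 0.41 (SE; 95% interval -0.12 to 1.77), and edgeR's Benjamini-Hochberg adjusted p was 0.699. The interval spans 0. The mean log2 ratio of the pairs, 0.81 ± 0.91 (SD, n = 3, with a prior count of 2), was smaller than the spread between pairs. Leaving out pair 3 moved the log2 fold change to 1.42 (adjusted p = 0.0966), and leaving out pair 2 moved it to 0.35 (0.9996). Over all alternatives its adjusted p ran from 0.0966 to 1.

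The S copy of EphA3 showed no common direction. Control and dkk embryo had 49 and 75 reads in pair 1 (2.86 and 4.02 CPM), 25 and 18 in pair 2 (1.36 and 1.00 CPM) and 28 and 24 in pair 3 (1.42 and 1.09 CPM). The dkk embryo stood higher in pair 1 and lower in pairs 2 and 3, and the 95% interval of the ratio included 1 in each pair. Group levels were 1.88 ± 0.85 CPM and 2.04 ± 1.72 CPM (SD, n = 3). The log2 fold change was -0.06 ± 0.34 (SE; 95% interval -0.84 to 0.71), and edgeR's Benjamini-Hochberg adjusted p was 0.988. Its sign turned under 4 of 10 alternatives.

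The level of epha3.S differed between matings. Both embryos of pair 1 stood above the other 4 embryos, at 2.86 and 4.02 CPM against 1.00 to 1.42 CPM. The F test of the mating pairs in the same edgeR fit, also chosen after these values were seen, gave an adjusted p of 0.0388 for epha3.S and 0.188 for epha3.L. Differences between matings were common, at 22.2% of the genes tested, so 1 of 2 receptor rows says nothing particular about them. Without pair 1 the adjusted p of epha3.S was 0.937.

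**Figure D2:**
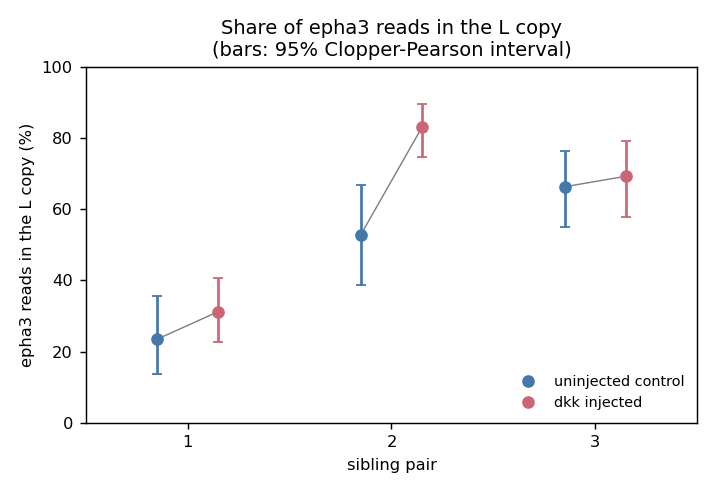
Percent of all epha3 reads that were assigned to the L copy in each embryo, by sibling pair, with 95% Clopper-Pearson intervals. The share is lowest in both embryos of pair 1, at 23.4% and 31.2%, and highest in the dkk embryo of pair 2, at 83.0%.

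The share of EphA3 reads in the L copy was lower in mating pair 1 than in the others. The L share in controls 1 to 3 was 23.4% (95% Clopper-Pearson interval 13.8% to 35.7%), 52.8% (38.6% to 66.7%) and 66.3% (55.0% to 76.3%). In the dkk siblings it was 31.2% (22.7% to 40.8%), 83.0% (74.5% to 89.6%) and 69.2% (57.8% to 79.2%). The interval of control 1 does not meet those of controls 2 and 3. That of dkk embryo 1 does not meet those of dkk embryos 2 and 3, but it meets that of control 2. The difference in share between matings was not tested. Within pairs, the intervals of siblings overlapped in pairs 1 and 3 but not in pair 2. The dkk embryo had the higher L share in 3 of 3 pairs, with differences in the log2 ratio of L to S reads of 0.545, 2.098 and 0.192 in pairs 1 to 3. Their mean was 0.94 ± 1.01 (SD, n = 3) and rested on pair 2, without which it was 0.37. The exact paired permutation test gave p = 0.25 (two-sided), the smallest p that 3 pairs allow. Reads that align to both copies were not counted, so the share rests on reads that differ between them. Summed over copies, epha3 had 64 and 109 reads in the control and dkk embryo of pair 1, 53 and 106 in pair 2 and 83 and 78 in pair 3, with a log2 fold change of 0.47 ± 0.31 (SE) and a Benjamini-Hochberg adjusted p of 0.804 in edgeR.

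EphA10 was read at a few reads per embryo, with 1 exception. The L copy, epha10.L, had 1 read in the control and 27 in the dkk embryo of pair 1, 0 and 2 in pair 2 and 8 and 4 in pair 3. The dkk embryo of pair 1 stood alone at 1.45 CPM (95% Poisson interval 0.954 to 2.11), while the other 5 embryos lay between 0 and 0.405 CPM. Its ratio to its sibling, which had a single read, was 24.8 (95% interval 4.09 to 1017). In pair 3 the dkk embryo was the lower one, with a ratio of 0.448 (0.0988 to 1.67). With the filter removed, the log2 fold change was 1.55 ± 1.07 (SE) with a Benjamini-Hochberg adjusted p of 0.968 in edgeR. The mean log2 ratio of the pairs, 1.15 ± 2.04 (SD, n = 3), went to 0.11 without pair 1, so it rested on that embryo. The S copy, epha10.S, had 6, 0 and 0 reads in controls and 1 read in each dkk embryo, and its groups overlapped. In the embryo where epha10.L reached 27 reads, epha10.S had 1 read.

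**Figure D3:**
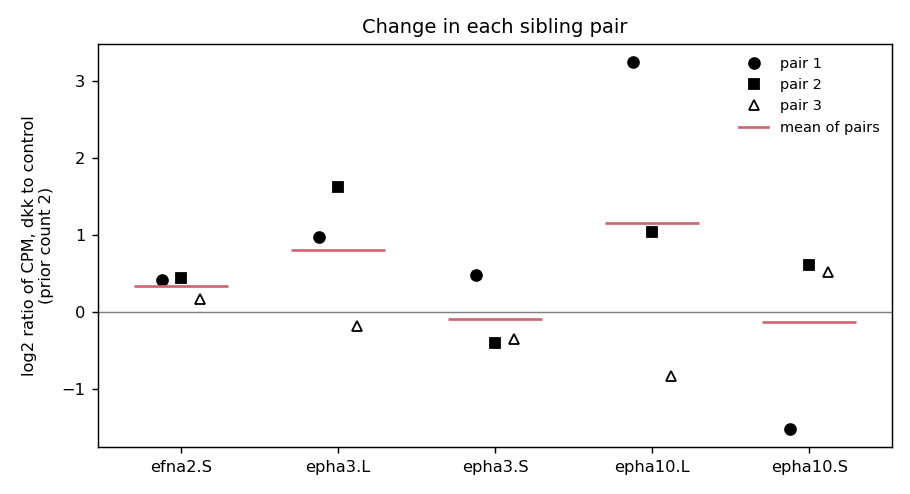
Log2 ratio of the dkk embryo to its control sibling (prior count 2) for each row with reads above the limit, with 1 point per sibling pair and the mean as a line; efna2.L is left out because both groups lie under 3 reads. Only efna2.S has all points on the same side of 0, by less than the counting error in each pair. The share of all genes that do so was not counted. Both epha3.L and epha10.L are above 0 in pairs 1 and 2 and below 0 in pair 3.

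Ligand and receptor reads were also summed. The ligand rows together had 4, 4 and 15 reads in controls 1 to 3, against 6, 6 and 19 in the dkk embryos. Their log2 ratio was 0.46, 0.62 and 0.18 in pairs 1 to 3. The receptor rows together had 71, 53 and 91 reads in controls, against 137, 109 and 83 in the dkk embryos, with log2 ratios of 0.83, 1.07 and -0.29. Mean ratios were 0.42 ± 0.22 for ligands and 0.54 ± 0.73 for receptors (SD, n = 3), so the difference between the classes was smaller than the spread between pairs. The ligand sum is almost wholly efna2.S and the receptor sum mostly epha3. No test was made of either sum.

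Genes that act with Eph receptors and ephrins in vertebrates were read from a list of 68 names, of which 29 had rows; 47 rows were tested. By edgeR 0 were called, DESeq2 and limma-voom called 0, and 8 had an unadjusted p under 0.05, all lower in dkk embryos. The 8 rows came from 6 gene names, since crkl and pard6g entered with both copies. Counted in either direction, 8 of the 47 rows had an unadjusted p under 0.05 in edgeR, and 7.82% of all genes tested did. The share of all genes that were lower at that p was not counted, so the common direction of the 8 rows has no like share beside it. Whether the partners fell as a group was not tested. The 8 rows are described below because of their p-value, which favours rows whose pairs agree. The median log2 fold change of the 47 rows was -0.07, against -0.0013 for all genes tested, with 28 rows below 0 and 19 above; of all genes tested 50.3% were below 0.

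**Figure D4:**
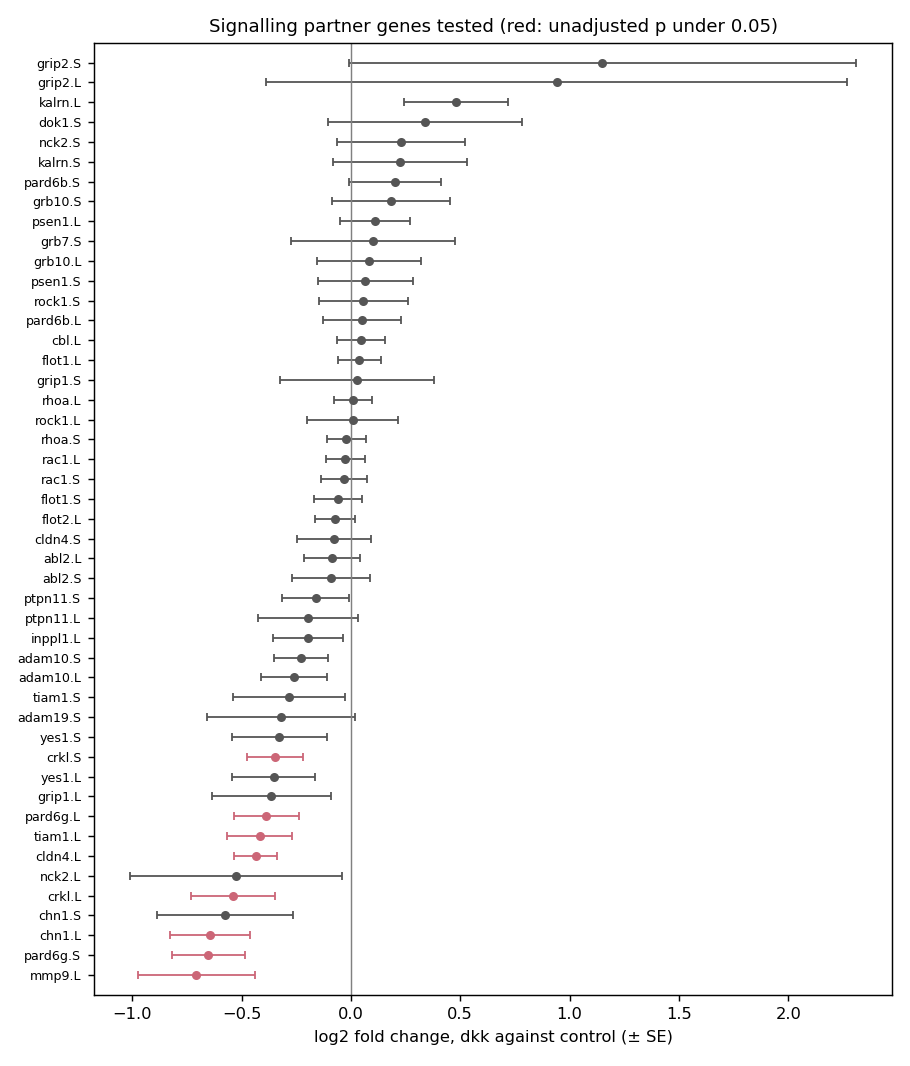
Log2 fold change of dkk against control with its standard error for the 47 tested rows of Eph and ephrin signalling partners, ordered by value. The 8 rows with an unadjusted p under 0.05, in red, lie between -0.71 for mmp9.L and -0.35 for crkl.S, and none passed after adjustment over all genes.

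The smallest p among the partners was that of cldn4.L, which encodes a tight junction claudin. It stood at 524, 665 and 568 CPM in controls 1 to 3, against 443, 479 and 378 CPM for the dkk embryos. The log2 fold change was -0.43 ± 0.10 (SE; edgeR, Benjamini-Hochberg adjusted p = 0.163). With the filter removed cldn4.L was called (edgeR, adjusted p = 0.0370) at nearly the same log2 fold change, -0.44 ± 0.10 (SE). In that fit 0.955% of 35909 rows were called. The other copy, cldn4.S, did not have an unadjusted p under 0.05 in edgeR. It was lower in pairs 1 and 3 but higher in pair 2, with a log2 fold change of -0.08 ± 0.17 (SE).

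Both copies of pard6g, which encodes a Par6 polarity protein, were lower in 3 of 3 pairs. pard6g.S stood at 61.6, 68.2 and 46.7 CPM in controls 1 to 3, against 39.0, 33.8 and 38.4 CPM for the dkk embryos. Its log2 fold change was -0.65 ± 0.17 (SE; edgeR, Benjamini-Hochberg adjusted p = 0.236), and it was called with the filter removed (0.0437) and without pair 3 (0.0282). That of pard6g.L was -0.39 ± 0.15 and was called under none of 10 alternatives. The fit without pair 3 called 659 of 21750 genes, against 124 of 21643 with all pairs.

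The adaptor gene crkl, whose product links tyrosine kinases to Ras family regulators, differed between pairs in both copies. crkl.L stood at 265, 237 and 338 CPM in controls 1 to 3, against 142, 139 and 351 CPM for the dkk embryos, lower in pairs 1 and 2 and slightly higher in pair 3. crkl.S stood at 199, 236 and 227 CPM and at 136, 166 and 229 CPM, with the same order. Neither passed (edgeR, Benjamini-Hochberg adjusted p = 0.547 and 0.536), but without pair 3 both were called, at log2 fold changes of -0.83 and -0.52 (0.00794 and 0.0373). Across the whole fit without pair 3, 659 of 21750 genes were called. The adaptor copy nck2.L, at -0.53 ± 0.48 with all pairs, was the other partner called without pair 3, where it stood lower in pairs 1 and 2 but higher in the omitted pair, with log2 ratios of -1.57, -0.82 and 0.82 in pairs 1 to 3 (-1.19 without pair 3; edgeR, Benjamini-Hochberg adjusted p = 0.0453). It is named here because its call appeared there. The other copy, nck2.S, was not lower in any pair, with log2 ratios of 0.018, 0.65 and 0.022 in pairs 1 to 3. Its log2 fold change with all pairs was 0.23 ± 0.29 (SE).

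The remaining rows with an unadjusted p under 0.05 were chn1.L, which encodes a chimaerin that switches off Rac and acts below EphA4 in mouse axons, tiam1.L, which encodes an activator of Rac, and the matrix metalloproteinase copy mmp9.L. Their log2 fold changes were -0.64 ± 0.18, -0.42 ± 0.15 and -0.71 ± 0.27 (SE). All 3 were lower in 3 of 3 pairs, but tiam1.L in pair 2 by a log2 ratio of only -0.011 (145 and 144 CPM). In edgeR the Benjamini-Hochberg adjusted p of the 3 rows was 0.309, 0.502 and 0.544, in that order. The other copies chn1.S and tiam1.S did not have an unadjusted p under 0.05 in edgeR. Of these, chn1.S was lower in pairs 1 and 2 but higher in pair 3, and tiam1.S was lower in pairs 1 and 3 but higher in pair 2.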

How the data were processed

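Polyadenylated RNA of 6 single embryos was sequenced with Illumina TruSeq libraries, per the labels' protocols. The authors deposited raw read counts per gene row for each embryo; per the submitters' processing notes TopHat2, SAMtools and HTSeq were used. Their versions, the strand setting, the build and the gene models are not stated in these sources. The rows that name no gene, with 25.6% to 28.2% of counted reads (15.9% to 17.6% with several alignments), were left out. The authors' deposited table of their own comparison, with an adjusted p-value per gene, was searched for members only. A RefSeq table (Xenopus_laevis_v10.1, used for names) listed 24 symbols matching the pattern; 3 of the 6 rows matched by symbol. No sequence is shown.

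Counts were fitted over all genes with edgeR 4.0.16 in R 4.3.3: TMM scaling, filterByExpr by group (minimum count 10, total 15), robust quasi-likelihood test, mating pair as block, Benjamini-Hochberg adjustment, threshold 0.05. The fit was tested on simulated data. Standard errors are those implied by the F statistic. Siblings share a mating per the design text; deviations from group means correlated at 0.674, 0.552 and 0.622 within pairs. With 1 embryo per group and mating, a p-value weighs the dkk effect against its spread over the 3 sibling pairs. In edgeR that spread is drawn towards the spread of other genes. Its p-values, standard errors and intervals therefore do not rest on the 3 pairs of a gene alone. Alternatives used DESeq2 1.42.0, limma 3.58.1, other scalings and filters, no block, summed copies and each pair left out. The members and lists were chosen with earlier results of these data known. Every row of the family could be named, with full values for rows at an unadjusted p under 0.05, the most read rows of each class and their other copies; of partner genes, those at an unadjusted p under 0.05. The planned median over ligand rows was not computed because no ligand row passed the filter with all 3 pairs. Sums of reads were used instead. Without pair 1, and without pair 2, 3 member rows passed the filter and 0 were called.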

Additional observations from a re-analysis of the deposited data

How the results depend on the processing

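No ephrin or Eph receptor row was called under any of the 11 alternatives run, in either direction. The number of all genes called, 124, went to 14 without the mating pair as a block, 391 with the DESeq2 Wald test and 343 with no filter, and ranged from 58 to 659 when single pairs were left out. Signalling partner rows called, 0 of 47 in the main fit, went to 2 with no filter and ranged from 0 to 4 when single pairs were left out. The 4 were called without pair 3. Over all genes, 0.573% were called in the main fit, 0.955% with no filter and 659 of 21750 without pair 3. The log2 fold change of epha3.S turned from -0.06 to 0.12 without the replicate block, 0.017 with limma-voom and, when single pairs were left out, ran from -0.41 to 0.11, in each case within 1 standard error of 0. The unblocked fit changed no call of a member or partner. That of epha3.L kept its sign under all 10 alternatives that test single copies, between 0.35 and 1.42. The epha3 copy difference, 0.94, ran from 0.37 to 1.32 without single pairs. The tested receptor rows were only the 2 copies epha3.L (0.83) and epha3.S (-0.06), of opposite sign. Their median, 0.38, ran from 0.16 to 0.77 without single pairs. Depth limits the efna2 and epha10 rows: at the counts read, their ratios have intervals many-fold wide.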
